A study of Drosophila melanogaster with 4 samples.

Results

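Of the 6065 peaks called for the transcription factor Atonal in Drosophila melanogaster eye discs, 836 lay on 3LHet, a scaffold of heterochromatic sequence assigned to the left arm of chromosome 3. They were taken by the name of the reference sequence alone, so that no measured value entered the choice. All libraries came from third-instar (L3) larvae of the knock-in IMAGO line ato:GFP, kept at 25 degrees and otherwise untreated. The tagged protein was thus present in the input material as well as in the precipitated material. Eye discs were dissected from 400 larvae (800 discs), fixed and sonicated; 10% of the volume became input and the remainder was precipitated with anti-GFP antibodies. The labels give 2 ChIP and 2 input libraries, without stating whether each number stands for its own dissection. An anti-GFP precipitation from animals without the fusion was not analysed here.

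Atonal is a proneural basic helix-loop-helix protein that selects the R8 founder photoreceptor in the eye disc and binds E-box elements together with Daughterless. Pericentromeric heterochromatin is the compact, repeat-rich DNA flanking the centromere; it is built largely from transposon remnants and satellite arrays, is marked by methylation of histone H3 at lysine 9, and is bound by HP1. Scaffolds such as 3LHet hold the part of this DNA that could be assembled. Related repeats occur there in many copies, so that short reads cannot always be placed at 1 of them.

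The deposited data are 1 list of peaks without a value for any library, so library depth is unknown and no value below has an error between replicates. Intervals cover counting error over peaks only, and neighbouring peaks are not independent. Fold is the enrichment of ChIP over control given for each peak in the deposited list. Each fold and p-value together also imply a ChIP level and a control level at the peak, under the formulas of MACS2. Control levels are given below as multiples of the lowest one in the list, and a peak below 1.5 times that level is called a low-control peak. Positions are those of the deposited list, counted from 1; no genome or annotation of that build was used here, so peaks are named by position and not assigned to genes, exons or repeats.

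3LHet carried 327 peaks per Mb, a density that could not be told apart from that of 3RHet but exceeded that of the 3L arm. On 3RHet, the heterochromatic scaffold of the other arm of the same chromosome, 804 peaks gave 321 per Mb. The ratio of 3LHet to 3RHet was 1.02 (95% interval 0.924 to 1.12, two-sided exact binomial test, adjusted p = 0.711). The whole 3L arm carried 780 peaks over 24.5 Mb, or 31.8 per Mb, so that 3LHet was 10.3 times as dense (9.32 to 11.4, exact binomial test, p below the smallest number that could be stored). The 2 Mb of 3L next to the centromere held 429 of these, at 215 per Mb, against which 3LHet was 1.53 times as dense (1.36 to 1.72, exact binomial test, adjusted p = 6.45e-13). With the stretch set at 1 Mb, this ratio was 1.16 (1.01 to 1.33, exact binomial test, unadjusted p = 0.0306). The test takes peaks as independent. The variance of counts in 100 kb bins was 4.83 times their mean on 3LHet and 10.0 times in the proximal 2 Mb. The interval at 1 Mb is therefore too narrow, and its p too small. The median control level was alike on 3LHet, on 3RHet and in the proximal 2 Mb of 3L, at 2.37, 2.30 and 2.40 times the lowest, and lower in the rest of 3L, at 1.28. Low-control peaks made up 124 of the 836 on 3LHet (14.8%), 18.7% of those on 3RHet and 33.8% of those on 3L, against 25.9% of the whole list. Counting only these over the same lengths, the ratio of 3LHet to 3L fell to 4.51 (3.61 to 5.60), while that to the proximal 2 Mb was 1.57 (1.15 to 2.16). What part the control level has in the difference from the rest of 3L was not tested.

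Peaks were found in every 100 kb of 3LHet, but unevenly. The 25 complete bins held a median of 28 peaks (quartiles 24 and 40), from 13 to 65. Along the scaffold, counts started low, with 21, 25 and 18 peaks in the first 3 bins, and then jumped to 54 in the bin from 0.3 to 0.4 Mb. Counts of 43, 43 and 48 followed between 0.5 and 0.8 Mb, after a single bin of 24. The middle of the scaffold, from 1.1 to 1.5 Mb, held 22 to 30 peaks per bin. Further on, the bins from 1.7 to 1.8 Mb and from 1.8 to 1.9 Mb held 46 and 40. The fullest bin, from 2.1 to 2.2 Mb, held 65 peaks between neighbours of 25 and 27, and the emptiest, with 13 peaks, lay only 100 kb farther on, from 2.3 to 2.4 Mb. Pearson's r between the counts of adjacent complete bins was −0.06 (24 pairs, from 1 list), and whether full bins tend to lie side by side was not tested.

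**Figure D1:**
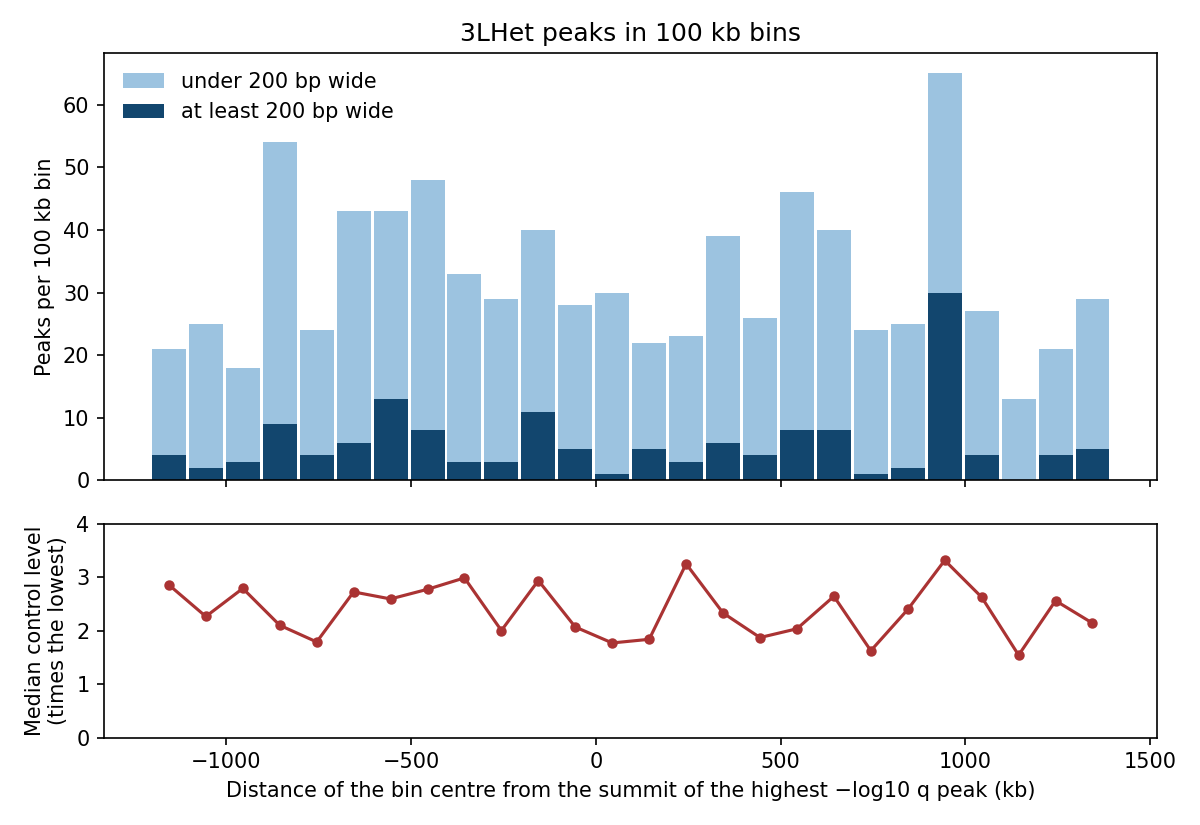
Peaks per 100 kb bin on 3LHet (upper panel, bars split by peak width) and the median control level of the peaks in each bin (lower panel, times the lowest level), against the distance in kb of the bin's centre from the summit of the scaffold's most significant peak by −log10 q. The bin of 65 peaks stands out together with its 30 wide peaks, and the last bin on the right is incomplete.

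The counts of single peaks were more spread than those of 3RHet, with or without the fullest bins. The variance of the bin counts was 4.83 times their mean on 3LHet and 2.79 times on 3RHet, whose 25 complete bins held 16 to 51 peaks (median 33). Without the fullest bin of each, the values were 3.69 and 2.46. In the proximal 2 Mb of 3L the bins were still less even, with 0 to 49 peaks, 4 empty bins and a variance of 10.0 times the mean. The 5 fullest bins held 31.7% of the peaks in complete bins on 3LHet, 28.1% on 3RHet and 44.8% in proximal 3L. After peaks within 500 bp were merged, the complete bins held 10 to 33 regions on 3LHet and 11 to 32 on 3RHet. The wider range of 3LHet was thus one of single peaks and not of merged regions. These spreads are descriptions and their difference was not tested.

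**Figure D2:**
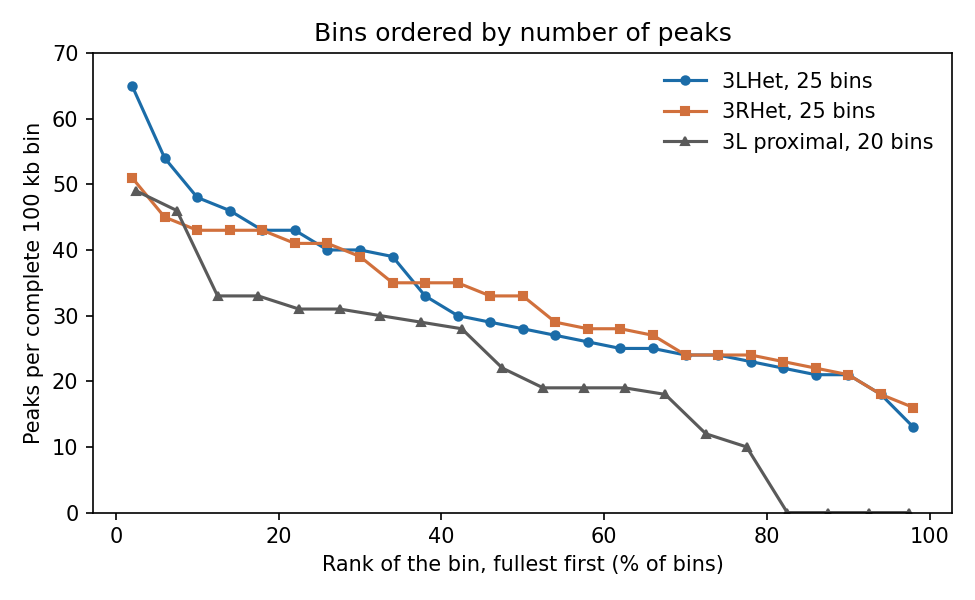
Peaks per complete 100 kb bin, with the bins of each sequence ordered from fullest to emptiest (horizontal axis, per cent of bins). 3LHet (25 bins) lies above 3RHet (25 bins) at the fullest bins, at 65 against 51. It lies below 3RHet around the middle, with medians of 28 and 33 peaks. The proximal 2 Mb of 3L (20 bins) reaches 0 in 4 bins.

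The fullest bin was filled from 1 short stretch. Of its 65 peaks, 41 lay in the 30 kb from 2160001 to 2190000, where the 10 kb windows held 16, 16 and 9 peaks, and none lay in the windows on either side. The whole bin had 14.7% of its bases under peaks, its median peak was 183 bp wide, and the median control level was 3.32 times the lowest. The other bins had median widths of 95 to 142 bp. Of the 152 peaks on 3LHet that were at least 200 bp wide, 30 were in this bin; the next highest number was 13. Leaving out the 20 kb with the most summits, from 2160840 to 2180839 with 33 peaks, made the bin from 0.3 to 0.4 Mb the fullest, and the highest count over the mean fell from 2.01 to 1.74. After peaks within 500 bp were merged, the bin of 65 peaks held 25 regions. The most regions, 33, then lay in the bin from 1.7 to 1.8 Mb. Of low-control peaks the bin of 65 held 5, and the most, 10, lay in the bin from 1.9 to 2 Mb. Across the 25 bins, the correlation of count with median width was r = 0.46 (Spearman's rho 0.23), and without the fullest bin r = 0.10. With the median control level it was r = 0.37 (rho 0.27), and 0.21 without the fullest bin; all bins share the same libraries.

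The bin from 0.1 to 0.2 Mb differed from the others in strength rather than number. Its 25 peaks had a median fold of 2.32 and a median −log10 q of 8.92, the highest of any bin on the scaffold, where the other medians ran from 1.73 to 2.08 and from 2.95 to 5.90. Of these 25 peaks, 9 had a fold of at least 2.5, and 14 were under 100 bp wide. All of them with a −log10 q above that median lay in the short stretch from 157927 to 168868. Folds of at least 2.5 were also found outside the stretch, as at 126772 to 126866 (2.83-fold). The high median −log10 q thus came from this stretch and not from the whole 100 kb. The bin's median control level, 2.27 times the lowest, was near that of the scaffold as a whole. The bin was singled out after its values were seen.

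Most peaks on 3LHet had close company. The median distance between neighbouring summits was 1062 bp (quartiles 441 and 3155 bp), and 568 of the 836 peaks (67.9%, Clopper-Pearson 95% interval 64.7% to 71.1%) had another summit within 1 kb. The share was 64.9% on 3RHet (61.5% to 68.2%), 62.5% in proximal 3L and 31.9% in the rest of 3L. It depends on density, which was 327 peaks per Mb on 3LHet and 15.6 per Mb in the rest of 3L. Whether peaks lay closer together than their density alone would give was not tested. Chaining summits no more than 1 kb apart gave 268 peaks that stood alone, 85 pairs, 52 groups of 3 or 4, and 28 clusters of at least 5. Among the 124 low-control peaks alone the share with a summit of the same kind within 1 kb was 18.5%, and after merging peaks within 500 bp it was 18.6%. Neither can be set against the 67.9%, since the first leaves fewer possible neighbours and the second joins close peaks. The 28 clusters of at least 5 held 221 peaks (26.4%), and 5 of them had at least 10. On 3RHet the corresponding numbers were 282 alone, 29 clusters of at least 5 and 26.6% of the peaks. No 2 summits on 3LHet were closer than 126 bp, and the smallest distance was much the same on 3RHet (121 bp) and 3L (129 bp).

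The largest cluster had 22 peaks, more than any on 3RHet or 3L, where the largest had 14. It ran from 2160519 to 2172874, a span of 12356 bp of which 44.7% lay under peaks, and its summits were 238 to 987 bp apart (median 565). Its peaks were 81 to 723 bp wide, 12 of them at least 200 bp. Their folds ran from 1.71 to 2.36 and their control levels from 2.56 to 4.53 times the lowest. No 2 of its 21 distances between neighbours agreed within 2 bp, so the row of summits had no fixed step. The next 4 clusters were smaller and tighter. Those at 1538093 to 1543318 and 1877458 to 1881936 had 12 peaks each, with median distances of 355 and 347 bp. Those at 26559 to 31025 and 337341 to 341755 had 10 each, with median distances of 324 and 450 bp. The cluster at 1538093 had the highest median fold of the 5, at 2.10, and that at 1877458 the lowest, at 1.74. The latter also had the highest median control level, 3.73 times the lowest, while the former had 2.5. No distance recurred within any of the 4.

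Control levels were higher in larger clusters, at much the same fold. Median width was 109 bp for peaks that stood alone (n = 268), 116 bp in groups of 2 to 4 (n = 347), 129 bp in groups of 5 to 9 (n = 155) and 138 bp in groups of 10 or more (n = 66). Median control level went from 1.94 to 2.40, 2.76 and 3.25 times the lowest in the same order. Median fold was 1.91, 1.87, 1.84 and 1.86. The largest class leans on the 22-peak cluster, whose median width was 223 bp and median control level 3.66; the other 44 peaks of the class had medians of 127 bp and 2.86. Of the other 4 clusters in this class, those at 26559 and 1538093 had median widths of 87.5 and 105 bp, below that of peaks alone, and those at 1538093 and 337341 had median control levels of 2.5 and 2.10. Low-control peaks were 27.2% of those that stood alone and 2 of the 66 in the largest clusters. On 3RHet and 3L the control level went the same way, from medians of 1.76 and 1.38 for peaks alone to 3.5 and 3.62 in clusters of 10 or more. There the median fold was lower in those clusters, at 1.71 on 3RHet and 1.65 on 3L. Neighbours within 1 kb on 3LHet had like control levels (r = 0.64 over 403 pairs, rho 0.64) and less alike folds (r = 0.23, rho 0.24); neighbours share libraries and surroundings, so these are descriptions.

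**Figure D3:**
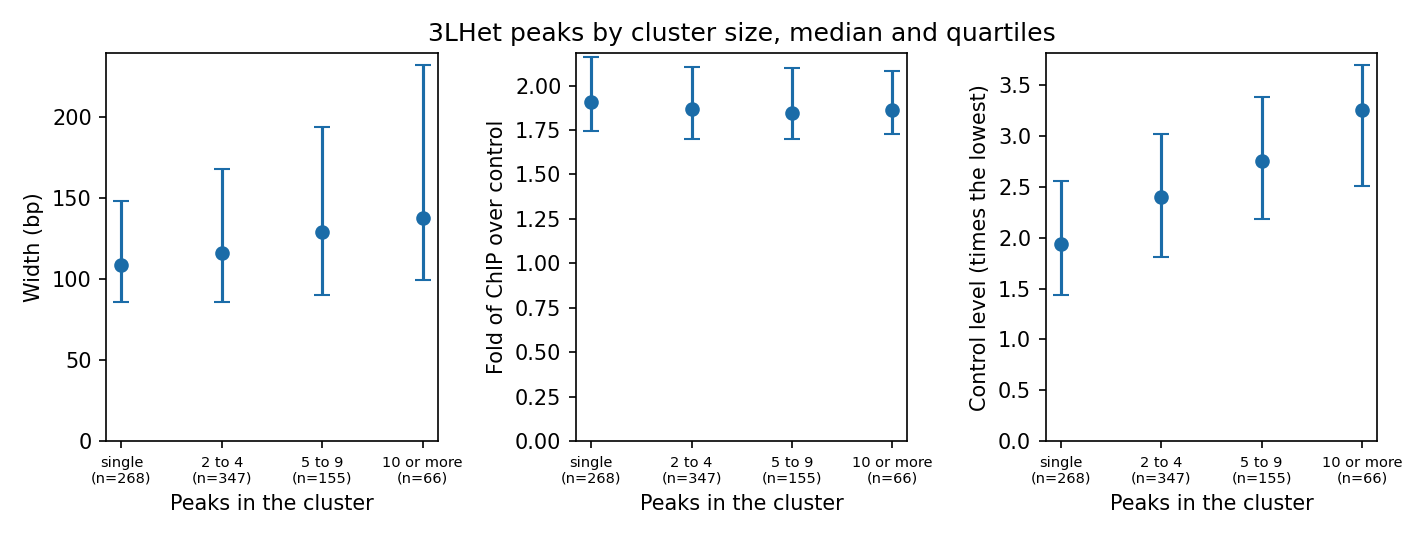
Width in bp, fold of ChIP over control, and control level (times the lowest) of 3LHet peaks by the number of peaks in their cluster, with summits chained at distances up to 1 kb. Points are medians and bars run from the lower to the upper quartile over peaks; the medians of control level rise from 1.94 to 3.25, or to 2.86 without the 22-peak cluster, while those of fold stay between 1.84 and 1.91.

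Between the clusters lay long stretches with no peak. On 3LHet 60 gaps exceeded 10 kb and together took up 42.6% of the scaffold. On 3RHet there were 49, with 39.3% of its length. The longest gap on 3LHet was 52.1 kb, from 2323223 to 2375321, inside the emptiest bin. The next were 37.2 kb from 184203 to 221429, 36.8 kb from 1409895 to 1446645, 36.4 kb from 51187 to 87564, and 34.7 kb from 2445055 to 2479717. The longest gap on 3RHet was 86.8 kb. Whether these stretches hold unresolved bases or sequence to which reads were not assigned was not tested.

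No spacing between summits stood out as a repeated unit. Of the 835 steps from one 3LHet summit to the next, 774 were at most 10 kb, and the most frequent exact lengths were 295 and 298 bp, with 4 occurrences each. Within 2 bp these lengths occurred 7 and 6 times. The lengths 246, 289, 376, 466 and 571 bp tied behind them, with 3 exact occurrences and 5 within 2 bp each. Counted within 2 bp, the most frequent were 166, 299, 300, 506 and 507 bp with 8 each; the highest count on 3RHet was also 8, and on 3L it was 7. On 3RHet the most frequent were 288, 309 and 343 bp, also with 4 each. The 4 occurrences of 295 bp were spread over the scaffold, starting at summits 1040992, 1214934, 1345359 and 1737470, and joined peaks of 69 to 111 bp. The 4 of 298 bp, from summit 312560 to summit 2289707, joined peaks of 81 to 264 bp. A share of 60.5% of the 3LHet steps matched at least 1 other within 2 bp, against 57.0% of 754 on 3RHet. The share depends on how many steps are compared, and with exact matches only it was 25.6% on 3LHet.

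Longer patterns did not recur on the scaffold. No 2 consecutive steps were found again in the same order on 3LHet within 2 bp, whereas 3RHet had 1 such case. At a tolerance of 5 bp there were 7 and 8 cases. Equal steps in succession, as a tandem array would give, were found at 3 places: 295 and 294 bp from summit 1345359, 264 and 263 bp from 1883170, and 435 and 436 bp from 2532713. 3RHet and 3L had 1 such place each. None went on for another such step. In reversed order, 3 pairs of steps matched. Of these, 1 joined separate places, 374 and 631 bp from summit 1164332 and 633 and 376 bp from summit 2167964 in the largest cluster; the other 2 were matches between overlapping runs of summits. Set against the 5229 peaks on other sequences, 18 pairs of steps recurred in the same order, an example being 261 and 474 bp from summit 1777387 and the same steps on 2R from summit 4378383. In none of the 18 did the widths of all 3 peaks agree within 20 bp. None of these counts was compared with chance.

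The distances between all summits up to 10 kb apart, 4142 pairs on 3LHet, were most frequent at short range and then declined slowly. Classes of 100 bp held 44 pairs at 100 to 200 bp, 77 at 200 to 300 bp, and 60 to 72 in each class from 300 to 1000 bp. Between 9 and 10 kb they held 31.1 on average (21 to 41). On 3RHet the corresponding averages were 58.7 from 300 to 1000 bp and 27.7 between 9 and 10 kb, with 3626 pairs in all. The fullest class beyond 1 kb was 1700 to 1800 bp, with 69 pairs on 3LHet against 53 and 54 in the classes beside it; 3RHet had 56 there and 3L 35. The most frequent exact distance, 3292 bp, occurred 5 times.

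**Figure D4:**
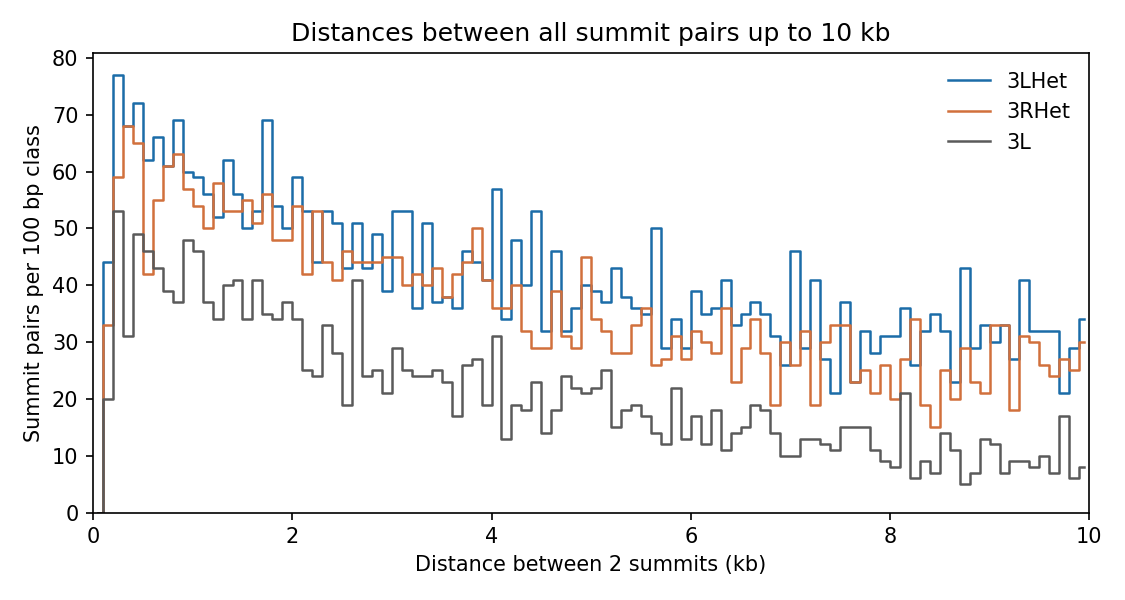
Number of summit pairs in each 100 bp class of distance, up to 10 kb, on 3LHet, 3RHet and the 3L arm. All 3 curves rise to a maximum in the first few classes and decline with no series of evenly spaced maxima; the 3LHet class from 1700 to 1800 bp holds 69 pairs.

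Peaks on 3LHet were short and weakly enriched. Median width was 119 bp (quartiles 87 and 173, range 69 to 1336 bp), against 117 bp on 3RHet and 116 bp on 3L. Median fold was 1.87 (quartiles 1.72 and 2.11, range 1.42 to 3.31), against 1.90 on 3RHet and 1.89 on 3L. The 3L medians pool unlike stretches: width and fold were 123 bp and 1.83 in the proximal 2 Mb and 108 bp and 1.94 in the rest of the arm. The differences of 3LHet from 3RHet were 2 bp and −0.03, and the ranges formed from the exact intervals of the medians (−11 to 13 bp and −0.08 to 0.02) include 0. On 3LHet 36.5% of the peaks were under 100 bp wide and 18.2% at least 200 bp, near the 37.1% and 19.5% of the whole list. On 3LHet 59 peaks had a fold of at least 2.5 (7.06%, Clopper-Pearson interval 5.42% to 9.01%), against 6.88% of the whole list. There were 7 peaks with at least 3-fold enrichment (0.837%, 0.337% to 1.72%), against 1.43% of the whole list, with 7 on 3RHet (0.871%) and 17 on 3L. Of the latter, 4 were proximal (0.932%, 0.255% to 2.37%) and 13 in the rest of the arm (3.70%, 1.99% to 6.25%). The maximum on 3LHet, 3.31, was below those of 3RHet (4.75) and 3L (5.54). Median −log10 q was 4.30 on 3LHet, 4.42 on 3RHet and 3.32 on 3L; at equal fold it rises with the ChIP and control levels.

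Fold and width ran in opposite directions along the control level. Among the 124 peaks on 3LHet under 1.5 times the lowest level, the median fold was 2.19, the median width 102 bp, and 29 peaks (23.4%) had a fold of at least 2.5. Between 1.5 and 2.5 times (338 peaks) the median fold was 1.95 and the median width 107 bp. Between 2.5 and 3.5 times (270 peaks) these were 1.78 and 126 bp. At 3.5 times or more (104 peaks) they were 1.73 and 194 bp, 48.1% of the peaks were at least 200 bp wide, and none had a fold of 2.5. The lowest fold listed was 1.71 in the first class and 1.42 in the last, so the fold needed for listing was itself lower where the control was higher. Fold was also limited from above, since no ChIP level in the list exceeded 138. At the highest control level this allows a fold of at most 1.73, and a fold of 2.5 was out of reach throughout the last class. Over the 836 peaks, fold and control level had r = −0.51 (rho −0.52) and width and control level r = 0.40 (rho 0.32), as descriptions of values that the same peak caller computed from shared levels. The same order of median folds was seen on 3RHet, from 2.17 to 1.70, and on 3L, from 2.11 to 1.67.

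**Figure D5:**
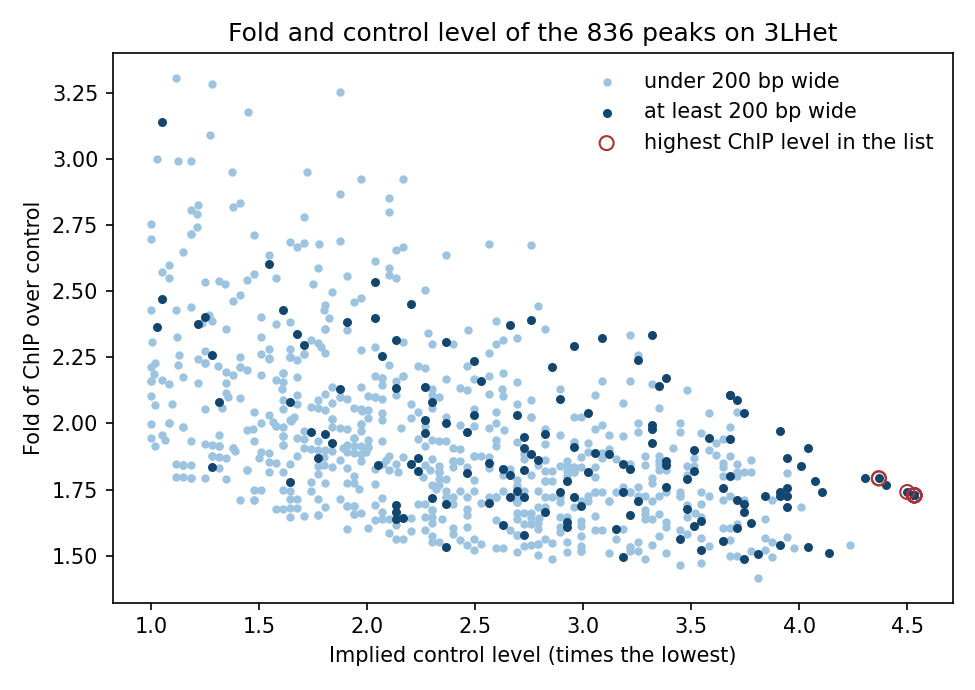
Fold of ChIP over control against the implied control level (times the lowest) for each of the 836 peaks on 3LHet, with dark points for peaks at least 200 bp wide and red circles for the 13 at the list's maximum ChIP level. Of the 59 peaks with a fold of at least 2.5, 57 lie below 2.5 times the lowest control level and 56 are under 200 bp wide, and the circled peaks lie at the right end with folds of 1.73 to 1.79. Because ChIP levels in the list end at 138, the fold that a peak can reach falls toward the right.

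Wide and strong peaks hardly overlapped on this scaffold. Of the 152 peaks at least 200 bp wide, 3 had a fold of at least 2.5 (1.97%), against 56 of the 684 narrower ones (8.19%). The median control level was 2.97 times the lowest for the wide peaks and 2.27 for the narrower ones. With ChIP levels of at most 138, a fold of 2.5 was out of reach at the higher control levels, so the shares are not on equal terms. The first of the 3 wide peaks with such a fold, 690222 to 690431, spanned 210 bp at 3.14-fold. Its control level was 1.05 times the lowest, and its nearest neighbouring summit was 2311 bp away. The other two were 2444792 to 2445054, 263 bp at 2.60-fold, and 2011887 to 2012099, 213 bp at 2.53-fold.

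Ranked by −log10 q, the top 10 peaks of the scaffold were narrow in all cases but 1. Their median width was 79 bp, 9 of them were under 100 bp, and every one had a fold of at least 2.5. Over all 836 peaks on 3LHet, 36.5% were under 100 bp and 7.06% had such a fold. Fold and −log10 q come from the same levels (r = 0.80 over these peaks), so a ranking by −log10 q itself favours high folds. The first, 1205650 to 1205733, spanned 84 bp at 3.25-fold, with −log10 q at 20.6, and ranked 16 in the whole list. The second, 167417 to 167489, had a fold of 2.92 over 73 bp, and another of the 10, 167597 to 167671, lay 177 bp from it by summit. The peak at 159480 to 159549, 70 bp at 2.80-fold, also belonged to the 10, and all 3 lay in the bin from 0.1 to 0.2 Mb. The exception in width was 2187285 to 2187452, 168 bp at 2.67-fold, in the fullest bin. Further members were 2538198 to 2538293 (2.68-fold), 454130 to 454204 (2.93-fold), 1534956 to 1535034 (2.85-fold), 1788261 to 1788340 (3.18-fold) and 2384383 to 2384461 (2.87-fold). Of the 10, 1 stood alone and 1 was a low-control peak. The highest fold belonged to another narrow peak, 1864276 to 1864361 (86 bp, 3.31-fold), and the next to 334246 to 334327 (82 bp, 3.28-fold); both were low-control peaks.

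At the other end, 13 peaks on 3LHet stood at a ChIP level of 138, the maximum of the list, which 93 of the 6065 peaks shared. At 10 of the 13 the control level was also the highest found, 4.53 times the lowest, and all 10 had the same fold of 1.73 and the same −log10 q of 5.84. On 3RHet 5 peaks were at the highest ChIP level and 2 at both; on 3L there were 11 and 7, all in the proximal 2 Mb. The highest control level divided by 138 is 0.576, and at 91.1% of the 3LHet peaks the control level was a whole multiple of this value within 0.01 of a step, as it was at 85.4% of the whole list. The number 138 is also 2 times the width of the narrowest listed peak, 69 bp. Among the 10 peaks at both maxima, fold therefore gives no ranking.

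These peaks were concentrated in 2 places. From 615255 to 620502, a stretch of 5248 bp that began just after a gap of 27.0 kb, 7 peaks covered 83.8% of the bases, and 6 of them were at the highest ChIP and the highest control level. They included the widest peaks on the scaffold, 617727 to 619062 (1336 bp) and 619155 to 619989 (835 bp). From 2160519 to 2184021, which takes in the 22-peak cluster, 35 peaks covered 38.0% of 23503 bp, 6 of them at the highest ChIP level and 3 at both. Among the latter was 2183258 to 2184021 (764 bp), ranking next in width on 3LHet, followed by 2163408 to 2164130 (723 bp), at the highest ChIP level only. The remaining peak at the maximum, 159839 to 160396 (558 bp), lay in the bin from 0.1 to 0.2 Mb, next to the 70 bp peak at 159480. The next in width, 712439 to 713079 (641 bp, 1.83-fold), was below the highest level in both.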

How the data were processed

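Atonal ChIP (2 libraries) and input (2 libraries) are represented by 1 deposited peak list. The submitters' processing notes name Bowtie2 2.2.1. Which peak caller, settings and genome build were used, and whether libraries were pooled, is not given in the sources used here. Names such as 3LHet belong to Release 5 of the fly genome. In the deposited list, read as narrowPeak, the score equals 10 times −log10 q without its decimals (100% of peaks). The authors' fold ratio, −log10 q-value and −log10 p-value describe each peak. The weakest q-value is 0.0499. Library depth is unknown.

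A whole-number ChIP level matching fold and p under the MACS2 formulas was found for 6065 of 6065 peaks (largest misfit 8.29e-05 on the −log10 scale, next-best whole number at least 0.0247 away). The lowest control level is shared by 320 peaks. A sequence's length is the end of its last peak. Density ratios used two-sided exact binomial tests (scipy 1.17.1), Benjamini-Hochberg adjusted over 3 comparisons. Shares have Clopper-Pearson 95% intervals, medians order-statistic intervals. Bins count summits in 100 kb. Scripts were tested on simulated data. No test compared widths, folds, clusters or spacings.

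Places were named by rule: the 3 fullest and 3 emptiest bins, 5 longest gaps, 5 largest clusters, 10 peaks by −log10 q, 5 by width and 5 by fold, the 5 most frequent steps (with ties), and recurring runs. The peaks and measures were chosen with earlier results of these data known.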

Additional observations from a re-analysis of the deposited data

How the results depend on the processing

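Of 58 alternative values, 34 kept their direction and their side of the threshold or their interval, including all 11 for the densities against 3L and its proximal stretch. The 3LHet to 3RHet density ratio, not past the threshold in any setting, was 0.958 after merging peaks within 500 bp, 0.810 with control levels under 1.5 times the lowest and 0.986 without the densest 20 kb. The difference in median width from 3RHet was −3 bp with ChIP levels under 90% of the highest and −1 bp without the 20 kb. That from 3L was −5 bp at or above the median score, −2 bp under the 90% limit and 32 bp after merging, which widens regions by construction. With low control levels the differences in median fold turned to 0.0208 (3RHet) and 0.0852 (3L); at or above the median score the latter was −0.0670. The share with a neighbour within 1 kb was 60.2% at or above the median score, 18.6% after merging and 18.5% at low control levels, 48.7% within 500 bp and 84.0% within 2 kb. The highest over the mean bin count was 2.66 at or above the median score and 1.39 in bins of 200 kb. The share of recurring steps was 42.3% at or above the median score, 31.2% after merging, 0% of 59 steps at low control levels, 56.4% under the 90% limit, 25.6% with exact matches and 76.2% within 5 bp. Fewer steps, or another tolerance, change the share of recurring steps by construction. The share with a neighbour likewise depends on the distance, on merging, which joins close peaks, and on the number of peaks left as possible neighbours. Bins of 200 kb average over bins of 100 kb, which evens out the counts by construction. For the other changes the cause was not tested. The 90% and 20 kb settings were chosen after seeing the data. No paired analysis was possible because no value per library is listed, and leaving out a replicate was not run for the same reason.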
